A study of Mus musculus with 12 samples.

Results

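Inhibitory myeloid receptors are surface proteins of macrophages and related cells that restrain activation. Most of them carry tyrosine motifs in their tails, which Src-family kinases phosphorylate and which then recruit the phosphatases SHP-1, SHP-2 or SHIP-1 (Ptpn6, Ptpn11 and Inpp5d). Many have a close activating relative that signals through the adaptors DAP12 (Tyrobp) or Fc receptor gamma (Fcer1g). In the air spaces, alveolar macrophages meet the ligands CD200 and CD47 on epithelium and surfactant proteins in the lining fluid, and such receptors are known there for limiting inflammation.

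The set described here held 10 genes chosen by symbol: Lair1, Cd300a, Cd300ld, Cd300lf, Cd200r1, Cd200r2, Sirpa, Pilra, Lilrb3 and Lilrb4. All 10 were rows of the deposited count table of 23413 genes, and all 10 passed the filter on low counts. The symbols were chosen with results of these libraries already known, so shares of the set are given as a description. Among the members, Cd300ld is known to pair with Fc receptor gamma and to activate, and the function of Cd200r2 is less certain, so the name of the set fits them less well than the others.

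The libraries were RNA-seq of mouse alveolar macrophages, obtained by lavage, with 2 libraries in each of 6 groups. Of the fresh groups, 2 were wild type and 2 were labelled VDR knockout (a genotype without vitamin D receptor), each genotype at ages of 10 weeks and 4 weeks. The culture groups were wild-type cells kept 24 h in complete medium, either with 50 nM vitamin D3 or with no agent, and the sources used here do not give the age of their donors. The kind of Vdr allele, the strain, and whether animals were pooled are not stated there either. The p-values therefore set a difference only against the spread between these libraries, shared over the 6 groups in 1 fit. Some of that spread may be technical. Total counts ranged from 10409572 to 23233674, and 1 count was worth 0.0904 CPM or less. CPM are counts scaled to library size, here with TMM factors.

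For Vdr itself, 10-week wild type had 79.6 and 126.9 CPM and the 10-week libraries labelled knockout had 84.2 and 45.0 CPM, so replicate 1 of the latter was not low. The allele is not known here, and reads outside a deleted part would still be counted. Its description code also names wild type, while that of 10-week wild-type replicate 2 names knockout. For 4-week cells the Vdr values were 56.5 and 57.7 CPM (wild type) and 45.9 and 31.3 CPM (labelled knockout). In culture Vdr was at 7.82 and 7.61 CPM without vitamin D3 and at 72.1 and 42.4 CPM with it. At 10 weeks replicate 2 of both genotypes was female by Xist and Ddx3y and the remaining 10 libraries of the series were male. The alveolar macrophage markers were present in every group, with 0 of 13 genes at 0 counts. Their sum was from 24470 to 44040 CPM in fresh libraries and from 12380 to 14330 CPM in culture.

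Upstream sequence is shown for 4 of the members that fell with vitamin D3. In untreated culture against fresh cells Pilra went the opposite way to the other 3. The RefSeq promoter table (build GRCm38.p6) matched 7 of the 10 members by symbol or synonym, Lilrb3 under its current symbol Pirb. Each window is the 250 bases before the start site of that table, 5′ to 3′ on the gene's strand. By the GENCODE M21 annotation, 9 bases of the Lilrb3 window and 3 of the Pilra window lie in an exon of the gene itself. So do 36 bases of the Cd300ld window, which is not shown. Capitals mark the core letters of the site bound by PU.1, the myeloid master regulator (GAGGAAG on either strand). They also mark any half-site of the vitamin D receptor on either strand, with the letters AGGTCA as one form, AGTTCA as another, then GGTTCA and then GGGTCA. No half-site match overlapped a PU.1 core in the member windows. The windows are chr7:4063205-4063454 on the minus strand, chr16:44866847-44867096 on the plus strand, chr5:137836279-137836528 on the minus strand and chr7:3720383-3720632 on the minus strand.
Lair1: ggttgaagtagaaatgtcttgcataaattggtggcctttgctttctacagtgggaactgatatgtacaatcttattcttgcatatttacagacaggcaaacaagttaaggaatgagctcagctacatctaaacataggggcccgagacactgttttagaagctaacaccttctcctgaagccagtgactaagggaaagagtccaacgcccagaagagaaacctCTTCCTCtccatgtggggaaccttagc
Cd200r2: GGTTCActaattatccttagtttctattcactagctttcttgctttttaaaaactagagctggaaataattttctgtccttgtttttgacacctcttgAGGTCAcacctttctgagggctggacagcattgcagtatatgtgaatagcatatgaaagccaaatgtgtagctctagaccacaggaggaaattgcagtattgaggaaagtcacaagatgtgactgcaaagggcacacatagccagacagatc
Pilra: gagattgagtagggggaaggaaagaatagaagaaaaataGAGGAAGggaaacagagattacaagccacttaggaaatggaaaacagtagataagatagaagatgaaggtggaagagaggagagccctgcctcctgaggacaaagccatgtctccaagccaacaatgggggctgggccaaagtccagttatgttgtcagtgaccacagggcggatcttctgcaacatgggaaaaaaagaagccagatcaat
Lilrb3: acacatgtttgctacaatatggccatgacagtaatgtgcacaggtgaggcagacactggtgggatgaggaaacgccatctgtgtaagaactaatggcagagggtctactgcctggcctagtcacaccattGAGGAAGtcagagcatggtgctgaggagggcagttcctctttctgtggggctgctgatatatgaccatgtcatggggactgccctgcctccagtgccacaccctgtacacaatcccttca
The PU.1 core stood in 6 of the 7 member windows, all but that of Cd200r2, and in 10.6% of the 32851 windows in the table. In Lair1 it lay from 27 to 21 bases before the start and in Cd300a, which is not shown, from 40 to 34. A vitamin D receptor half-site stood in 3 of the 7 windows (Cd300a, Cd300ld and Cd200r2), against 38.6% of all windows. Both half-sites of Cd200r2 are marked above. No member window held a pair of half-sites in the same direction 3 bases apart, the arrangement the receptor is best known to bind, which 0.0396% of all windows held. A match is a description of letters only.

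**Figure D1:**
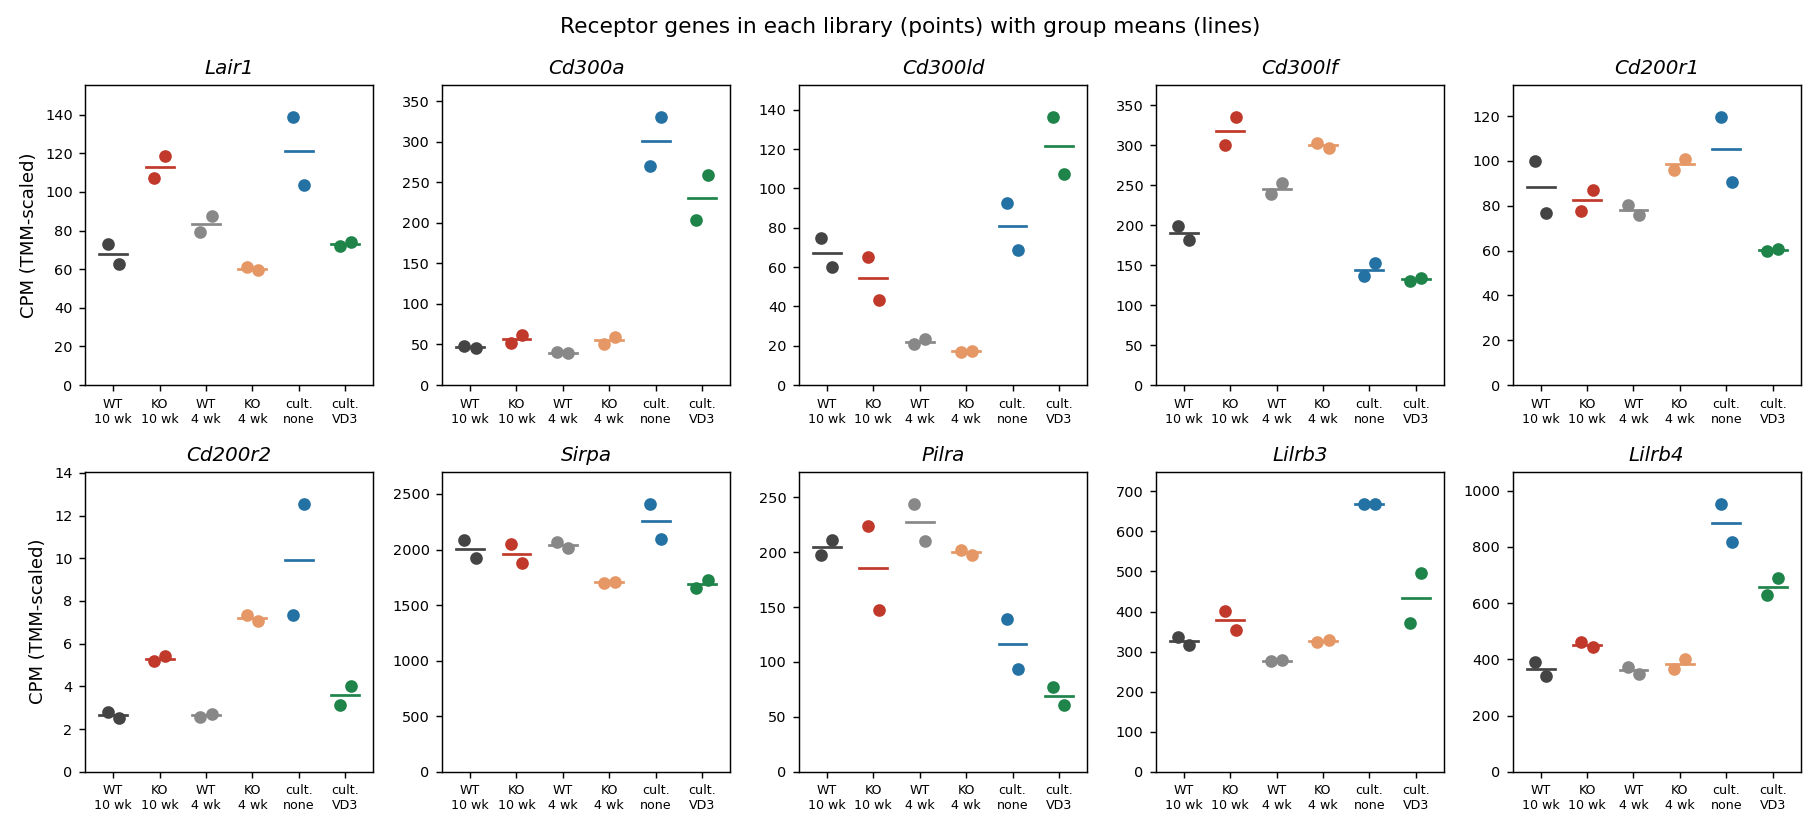
TMM-scaled CPM (vertical axis, from 0, with its own range per gene) of the 10 receptor genes in the 12 libraries (points), by group (WT, wild type; KO, labelled knockout; cult., culture with none or with 50 nM vitamin D3), with group means as lines. In 9 of the 10 genes both vitamin D3 libraries lie below both untreated cultures, Cd300ld is lowest at 4 weeks, and Cd300a rises with culture.

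Levels between genes can be compared only per length of transcript. With exon lengths of GENCODE M21, which need not be the annotation the authors counted on, Sirpa stood far above the rest in 10-week wild type at 409 CPM per kb. Lilrb3, Lilrb4 and Pilra followed close together at 72.9, 69.8 and 66.2 CPM per kb. Cd300lf was at 36.9, Cd200r1 at 26.5, Cd300ld at 25.5, Cd300a at 9.90 and Lair1 at 9.08 CPM per kb, and Cd200r2 was lowest at 1.53. In untreated culture Sirpa was at 459 CPM per kb, Lilrb4 at 169, Lilrb3 at 149.6 and Cd300a at 63.4.

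The first comparison asked how vitamin D3 acted on the receptors in cultured wild-type cells. Of the 10 genes 7 fell, 0 rose and 3 did not pass, in edgeR's quasi-likelihood test adjusted over all 12748 genes tested. Of all tested genes 10.6% were called, and 5.63% were called lower. The median log2 fold change was -0.52 over the receptors and 0 over all genes. All 4 culture libraries were separated without overlap for each of the 10 genes, 9 lower with vitamin D3. Among all tested genes 48.9% were so separated, 24.7% lower. Since the members were chosen with results known, nothing is read from these shares.

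Cd200r1, the receptor for CD200, was at 119.6 and 90.7 CPM without vitamin D3 and at 59.7 and 60.7 CPM with it. The groups did not overlap, and the 2 treated libraries agreed closely. Cd200r1 fell by 0.81 ± 0.15 on the log2 scale (SE, edgeR adjusted p = 0.0049), a 1.75-fold lower level. The related Cd200r2 was at 7.33 and 12.6 CPM without and at 3.15 and 4.00 CPM with vitamin D3. This was the largest change among the 10 genes, at log2 -1.47 ± 0.28 (edgeR adjusted p = 0.00625) in a gene of 57 to 155 counts per culture library.

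Lair1, an inhibitory receptor for collagens, was at 138.8 and 103.4 CPM without vitamin D3 and at 72.1 and 74.3 CPM with it. The treated libraries lay within the range of fresh wild-type cells, 62.9 to 87.5 CPM. Lair1 fell by 0.73 ± 0.14 on the log2 scale (edgeR adjusted p = 0.00556). Sirpa, the receptor for CD47, was at 2411 and 2097 CPM without and at 1652 and 1724 CPM with vitamin D3. The groups did not overlap, and the log2 difference was -0.42 ± 0.10 (edgeR adjusted p = 0.0212).

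Lilrb3, the paired immunoglobulin-like receptor PIR-B, which binds MHC class I, was at 668.5 and 668.8 CPM without vitamin D3 and at 372.1 and 497.1 CPM with it. It fell by 0.62 ± 0.13 on the log2 scale (edgeR adjusted p = 0.00859). Lilrb4, also known as gp49B, was at 953.3 and 816.9 CPM without and at 627.3 and 689.0 CPM with it, or -0.43 ± 0.11 on the log2 scale (edgeR adjusted p = 0.0328). Both genes have near-identical relatives, the Pira genes and Gp49a, with which the authors' counting could split or share reads, so their values are uncertain. Pilra, whose activating partners are the Pilrb genes, was at 138.7 and 93.6 CPM without and at 77.1 and 61.2 CPM with vitamin D3. It fell by 0.75 ± 0.21 on the log2 scale (edgeR adjusted p = 0.0427).

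The 3 Cd300 genes, which lie in one gene cluster, did not pass and did not share a direction. Cd300ld was at 92.9 and 68.5 CPM without vitamin D3 and at 136.3 and 107.1 CPM with it, the only member with higher values in treated cells (log2 fold change 0.59 ± 0.20, edgeR adjusted p = 0.0863). Cd300a, an inhibitory receptor for phosphatidylserine and phosphatidylethanolamine, was at 270.4 and 330.5 CPM without and at 203.8 and 258.7 CPM with it (log2 fold change -0.38 ± 0.14, edgeR adjusted p = 0.13). Cd300lf, an inhibitory receptor for phospholipids and ceramide, was at 136.2 and 152.1 CPM without and at 130.5 and 134.0 CPM with it. Its difference was log2 -0.12, with a 95% interval from -0.35 to 0.10.

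The count of receptors called with vitamin D3 depended on the fit. It was 2, Cd200r1 and Cd200r2, with only the culture libraries in the fit. The count was also lower in some fits that left out 1 library, which leave 1 library in a group. There calls can be lost for any gene. The share of all genes called in these fits is not given here, so the lower counts are not read as a trait of the receptors. In none of the alternatives did any of the 9 members with an unadjusted p under 0.05 change direction. Treated and untreated libraries did not overlap for these members, so leaving out 1 library could hardly reverse a sign. The exchanged labels belong to fresh libraries, outside this comparison. The constant direction is therefore not read as strengthening the calls. Within the libraries of title numbers starting D14-10, Cd200r1 differed by log2 -0.99 and Lair1 by -0.94, and within those starting D14-58 by -0.57 and -0.47.

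**Figure D2:**
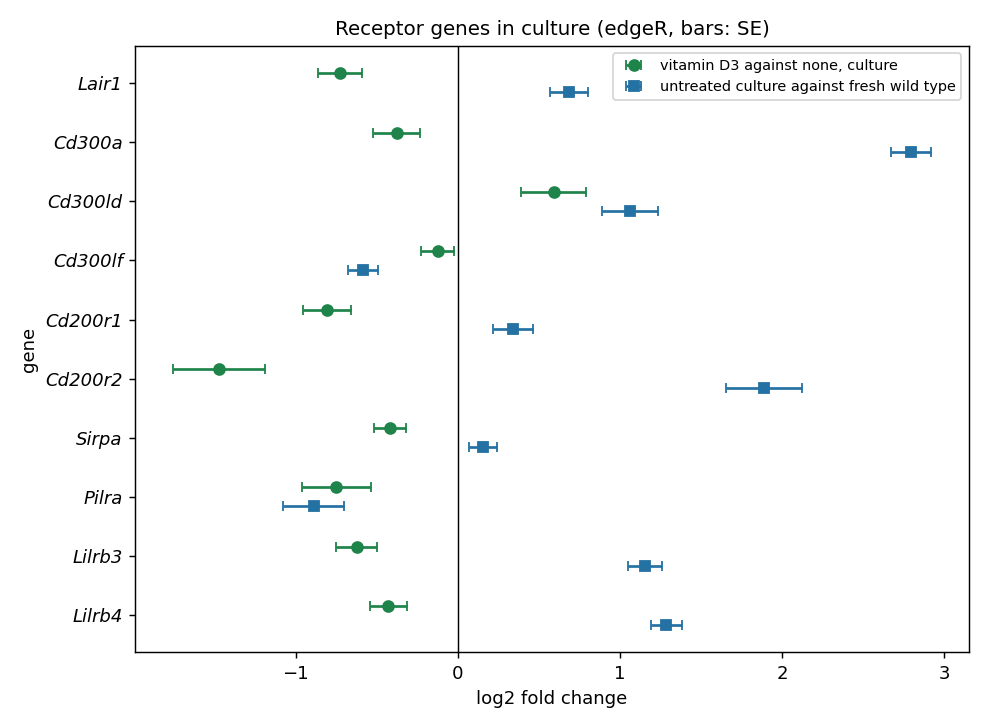
Log2 fold changes (horizontal axis, edgeR, bars are SE) of the 10 receptor genes with vitamin D3 against none in culture (circles) and in untreated culture against fresh wild type (squares). Circles lie left of 0 for 9 genes, and squares lie right of 0 for 8, from 0.16 for Sirpa to 2.79 for Cd300a.

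Genes around the receptors were described from lists of signalling parts, partners and ligands. With vitamin D3 10.6% of all tested genes were called, 5% higher and 5.63% lower. Of 20 tested paired activating receptors (of 25 listed), 9 fell with vitamin D3 and 0 rose, with a median log2 fold change of -0.71. Clec5a, a DAP12-coupled lectin, had a log2 fold change of -1.18 ± 0.15 and Clec4e, the receptor Mincle, of -1.52 ± 0.23. Sirpb1b, an activating relative of Sirpa, had one of -0.73 ± 0.11 and Pilrb2 one of -1.78 ± 0.28. Activating partners of Sirpa and Pilra thus had lower values with vitamin D3 as the inhibitory members did.

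Of 12 tested inhibitory receptors outside the set, 4 fell and 1 rose with vitamin D3. Clec12a, a lectin that dampens responses to cell death, had a log2 fold change of -1.68 ± 0.21, Clec4a3 of -0.82 ± 0.13 and Milr1 of -0.58 ± 0.11. Havcr2, which encodes TIM-3, was the one that rose, by 0.75 ± 0.17. Among the signalling genes of the inhibitory receptors, the phosphatase gene Inpp5d fell (-0.65 ± 0.11). Ptpn6 and Ptpn11 did not pass. Of 9 tested genes of activating signalling 1 fell, Vav1 (-0.38 ± 0.11), and 1 rose, Lcp2 (0.40 ± 0.12). Of 14 tested ligand genes 2 fell, Cd47 (-0.59 ± 0.11) and B2m (-0.45 ± 0.11).

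**Figure D3:**
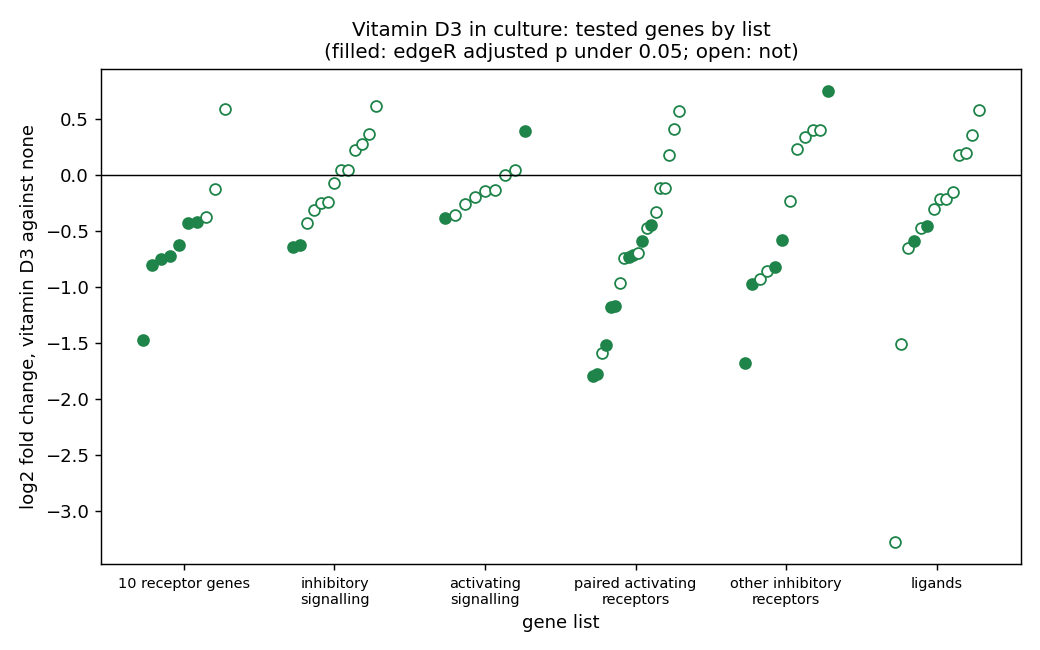
Log2 fold change with vitamin D3 (vertical axis) of each tested gene in 6 lists (columns, genes ordered by value); filled points passed an edgeR adjusted p of 0.05 over all genes. Filled points lie below 0 in the receptor set and in the paired activating receptors, 7 and 9 genes, and mixed signs appear among activating signalling genes and other inhibitory receptors.

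Markers of other cells also differed between the culture groups. The 10 monocyte and interstitial macrophage markers summed to between 482.8 and 815.4 CPM in untreated cultures and between 297.1 and 298.9 CPM with vitamin D3, with 1 gene at 0 in each group. Most of this was Csf1r, which alveolar macrophages also express, at 785.7 and 456.4 CPM without and 249.8 and 259.3 CPM with vitamin D3. C1qa was at 2.16 CPM or less in each culture library. The 11 T and NK cell markers in the table summed to between 220.3 and 227.5 CPM without and between 128.8 and 139.2 CPM with it, nearly all of it Cd2, while Cd3e was at 0.20 CPM or less. Of 8 tested T and NK cell markers 1 was called higher with vitamin D3 and 1 lower. The 9 neutrophil markers summed to between 85.5 and 87.5 CPM without and between 73.6 and 75.0 CPM with it. The 12 epithelial markers went the other way in sum, at 34.3 to 37.7 CPM without and 51.7 to 62.0 CPM with vitamin D3. Of these 12, 1 was called higher and 0 lower, while 3 had higher fitted values and 9 lower. The part of other cells in the receptor results was not tested, and in bulk RNA fewer cells of a type and less RNA per cell cannot be told apart.

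Untreated culture was set against fresh wild-type cells, as the mean of both ages, since the untreated libraries are the reference for vitamin D3. The 2 comparisons share those libraries. Of the 10 receptors 7 rose in culture, 2 fell and 1 did not pass, where 45.8% of all tested genes were called, 23.5% higher and 22.3% lower. The groups did not overlap for 8 receptors, 6 higher and 2 lower, where 56% of tested genes did not, 28.2% higher and 27.9% lower. Culture and age cannot be told apart in full, because the donors' age in culture is not given. Of 10 tested dendritic cell markers 8 fell and 1 rose, and their sum over 12 markers was 41.4 to 115.4 CPM in fresh wild type and 36.2 to 40.7 CPM in untreated culture. Of 12 epithelial markers 6 fell and 0 rose, with sums of 123.2 to 313.3 CPM and 34.3 to 37.7 CPM. Of 6 tested erythroid markers 5 fell and 0 rose, with sums of 70.8 to 3151 CPM and 0.602 to 1.86 CPM. Of 6 tested neutrophil markers 4 fell and 2 rose, with sums of 107.7 to 125.1 CPM and 85.5 to 87.5 CPM. Of the 13 alveolar macrophage markers 8 fell and 2 rose. Their part in the receptor differences with culture was not tested.

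Cd300a rose most. Fresh wild-type libraries had 48.3 and 45.6 CPM (10 weeks) and 41.0 and 39.0 CPM (4 weeks), and untreated cultures had 270.4 and 330.5 CPM. Cd300a rose by 2.79 ± 0.12 on the log2 scale (edgeR adjusted p = 2.32e-08), a 6.93-fold rise with no overlap. Cd200r2 rose by 1.89 ± 0.24 on the log2 scale, Lilrb4 by 1.29 ± 0.09, Lilrb3 by 1.15 ± 0.11, Cd300ld by 1.06 ± 0.17 and Lair1 by 0.69 ± 0.12 (edgeR adjusted p from 7.93e-07 to 0.000489). Cd300ld overlapped, since untreated replicate 2 at 68.5 CPM lay below 10-week wild-type replicate 1 at 74.7 CPM. Cd200r1 was near the threshold (0.34 ± 0.13, edgeR adjusted p = 0.0443) and its groups overlapped.

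Pilra and Cd300lf fell in culture. Pilra was from 197.4 to 244.0 CPM in the 4 fresh wild-type libraries and at 138.7 and 93.6 CPM in untreated culture, for a log2 difference of -0.89 ± 0.19 (edgeR adjusted p = 0.00227). Cd300lf was from 181.0 to 252.6 CPM in fresh wild type and at 136.2 and 152.1 CPM in untreated culture, for a log2 difference of -0.58 ± 0.09 (edgeR adjusted p = 0.000259). For Sirpa the log2 difference was 0.16, with a 95% interval from -0.03 to 0.35. Pilra was thus lower with culture and lower again with vitamin D3, whereas Lair1, Cd200r1, Cd200r2, Lilrb3 and Lilrb4 were higher with culture and lower with vitamin D3. The call of Cd200r1 in culture depended on single libraries and settings, passing in 6 of 13 alternatives, and that of Lair1 passed in 12 of 13.

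The same lists were set between untreated culture and fresh wild type as well. There 45.8% of all tested genes were called, 23.5% higher and 22.3% lower, so the counts are given as a description. Of 9 genes of activating signalling 4 rose and 2 fell. Tyrobp rose by 1.43 ± 0.11 on the log2 scale and Fcer1g by 0.86 ± 0.09, while Card9 fell by 0.67 ± 0.08 and Lcp2 by 0.59 ± 0.10. Of 13 genes of inhibitory signalling 4 fell, among them Dok3 (-1.14 ± 0.10), Csk (-0.72 ± 0.11) and Lyn (-0.42 ± 0.08). Of 20 paired activating receptors 9 rose and 4 fell, with Trem2 up by 3.51 ± 0.18, Cd300lb by 2.66 ± 0.16, Clec4e by 2.78 ± 0.20 and Clec5a by 1.65 ± 0.12. Of 14 ligand genes 5 rose and 4 fell. Cd200 rose by 3.76 ± 0.18 and Cd47 fell by 1.37 ± 0.10, while H2-D1 and Rtn4, which encode ligands of PIR-B, rose by 0.80 ± 0.09 and 0.78 ± 0.09. Of 12 other inhibitory receptors 2 rose, Ceacam1 (1.69 ± 0.24) and Milr1 (0.47 ± 0.09), and 4 fell, among them Siglece (-2.75 ± 0.39) and Siglecg (-3.01 ± 0.998).

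The knockout comparisons asked whether the receptors differed between fresh cells labelled knockout and wild type. Earlier results of these libraries had singled out Cd300lf, Cd200r2 and Lair1 in these comparisons, so their values are given as a description with no p-value. They stay among the 10 receptors in the counts of calls below, which are a description too. At 10 weeks 1 of 10 receptors was called, higher, where 0.11% of tested genes were, 0.0863% higher and 0.0235% lower. At 4 weeks 0 were called in edgeR's test, where 0.667% of tested genes were (0.471% higher, 0.196% lower). At that age 6 had an unadjusted p under 0.05. DESeq2 called 1, and 5 were called with only the 4-week libraries in the fit. The 0.667% does not apply to these other counts. No share of all genes is given for them, so nothing is read from them. Over both ages 2 of 10 were called, both higher, where 0.996% of tested genes were, 0.612% higher and 0.384% lower. The groups did not overlap for 6 receptors at 10 weeks, all higher, where 40.6% of tested genes did not, 19.7% higher and 20.9% lower. They did not overlap for 9 at 4 weeks, 5 higher and 4 lower, where 48.6% of tested genes did not, 24% higher and 24.6% lower. Over both ages 3 did not overlap, all higher, where 4.56% of tested genes did not, 2.27% higher and 2.28% lower. In the difference between the knockout differences at the 2 ages, 1 of 10 was called, higher, where 0.188% of tested genes were, 0.0628% higher and 0.126% lower. The members were chosen with results of these contrasts known, so nothing is read from the counts or shares. Counts at 10 weeks, over both ages and in the difference between ages were also lower in fits that left out 1 library. Such fits leave 1 library in a group, where calls can be lost for any gene. The share of all genes called in them is not given here.

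For Cd300lf, 10-week values were 199.2 and 181.0 CPM (wild type) and 299.9 and 335.2 CPM (labelled knockout). The 4-week values were 238.8 and 252.6 CPM (wild type) and 303.0 and 297.0 CPM (labelled knockout). All 4 libraries labelled knockout lay above all 4 of wild type, with log2 fold changes of 0.74 ± 0.10 at 10 weeks, 0.29 ± 0.10 at 4 weeks and 0.51 ± 0.07 over both. All 4 culture libraries had less Cd300lf than every fresh library.

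For Cd200r2, 10-week values were 2.81 and 2.53 CPM (wild type) and 5.17 and 5.42 CPM (labelled knockout). The 4-week values were 2.59 and 2.70 CPM (wild type) and 7.36 and 7.08 CPM (labelled knockout). The 4 wild-type libraries were nearly equal, and the log2 fold change over both ages was 1.21 ± 0.21. Cd200r2 is a gene of 32 to 133 counts in fresh libraries and belongs to a family of similar copies, so reads may be shared with Cd200r4.

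Lair1 had fitted differences of opposite sign at the 2 ages, and neither was called at its own age. The 10-week values were 72.9 and 62.9 CPM (wild type) and 107.1 and 118.8 CPM (labelled knockout), a log2 fold change of 0.73 ± 0.14. The 4-week values were 79.4 and 87.5 CPM (wild type) and 60.9 and 59.5 CPM (labelled knockout), a log2 fold change of -0.47 ± 0.14. The groups did not overlap at either age, and the difference between the 2 knockout differences was log2 1.20 ± 0.19.

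The other 7 receptors did not pass by genotype at either age, and neither did Cd200r2 or Lair1. For Cd300a the labelled knockouts had 51.6 and 61.6 CPM at 10 weeks and 50.9 and 59.6 CPM at 4 weeks, each above the wild-type libraries of the same age. Its log2 fold change over both ages was 0.37 ± 0.11 (edgeR adjusted p = 0.148) with no overlap. For Sirpa the 4-week values were 2064 and 2015 CPM (wild type) and 1703 and 1712 CPM (labelled knockout), without overlap (log2 fold change -0.26 ± 0.10, edgeR adjusted p = 0.343). For Cd200r1 the 4-week values were 80.3 and 75.7 CPM (wild type) and 95.8 and 101.1 CPM (labelled knockout), without overlap (0.34 ± 0.15, edgeR adjusted p = 0.394). For Lilrb4 the 10-week values were 390.6 and 339.0 CPM (wild type) and 460.3 and 444.9 CPM (labelled knockout), without overlap (0.31 ± 0.11, edgeR adjusted p = 0.369). Pilra was at 223.8 and 147.5 CPM in the 10-week libraries labelled knockout, a wider gap than in any other fresh group, and overlapped with wild type.

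**Figure D4:**
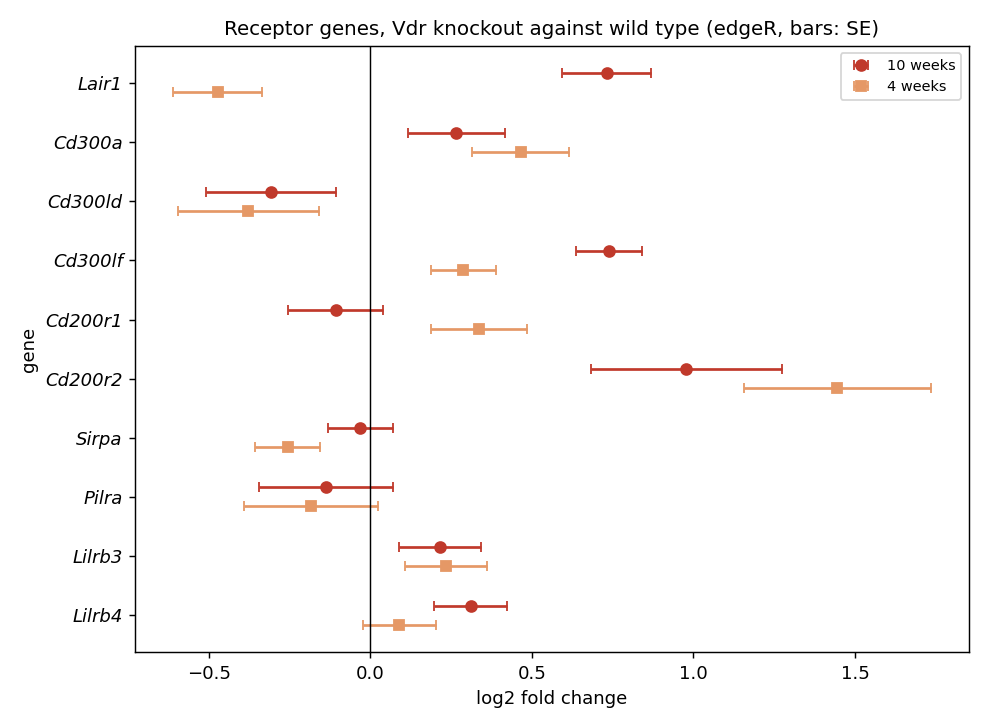
Log2 fold changes (horizontal axis, edgeR, bars are SE) of the 10 receptor genes in cells labelled Vdr knockout against wild type at 10 weeks (circles) and 4 weeks (squares). Lair1 lies at 0.73 and -0.47 on either side of 0, Cd300lf at 0.74 and 0.29, and Cd200r2 farthest to the right at 0.98 and 1.44.

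Exchanging the 2 libraries at 10 weeks whose description codes conflict left 0 receptors called at 10 weeks, over both ages and in the interaction. The deposited log2 table, grouped by the genotype its column names state, gave differences of 0.71 for Cd300lf, 0.77 for Cd200r2 and 0.71 for Lair1 at 10 weeks. The fit by genotype label gave 0.74, 0.98 and 0.73, and with the labels exchanged Cd200r2 was at -0.0133. The column names of that table thus followed the genotype labels and not the description codes. The genotype of the libraries themselves was not tested. At 10 weeks, within replicate 1 (male) and replicate 2 (female), Cd300lf differed by log2 0.59 and 0.89, Lair1 by 0.55 and 0.91, and Cd200r2 by 0.70 and 0.86. The 12 dendritic cell markers summed to between 75.9 and 92.7 CPM in 10-week wild type and between 36.4 and 38.0 CPM in labelled knockouts. The 4-week sums were 41.4 to 115.4 CPM (wild type) and 23.9 to 39.4 CPM (labelled knockout). T and NK cell markers at 4 weeks summed to 186 to 211.5 CPM in wild type and 131.3 to 139.8 CPM in labelled knockouts. Erythroid markers at 4 weeks summed to 1332 to 3151 CPM in wild type and 347.8 to 644.3 CPM in labelled knockouts. Of 7 tested monocyte and interstitial macrophage markers 6 had lower fitted values in labelled knockouts at each age, and 1 higher. Of the 13 alveolar macrophage markers 7 had higher fitted values there at 4 weeks and 6 lower. Marco, the 1 called, differed by log2 2.25 ± 0.31. Its knockout difference at 10 weeks minus that at 4 weeks was log2 -2.94 ± 0.43. The 12 epithelial markers at 10 weeks summed to 259.6 to 313.3 CPM in wild type and 348.4 to 492.3 CPM in labelled knockouts, and 10 of 12 had higher fitted values in the latter. Among them Ager, a marker of flat alveolar epithelial cells, had 1.63 and 2.37 CPM in wild type and 9.70 and 10.8 CPM in labelled knockouts at 10 weeks. At 4 weeks Ager had 3.28 and 3.67 CPM in wild type and 2.71 and 2.38 CPM in labelled knockouts. Differences of Ager, picked from the 12 after its values were seen, thus had opposite signs at the 2 ages, as those of Lair1 did. The 12 together summed at 4 weeks to 123.2 to 200.4 CPM in wild type and 145.6 to 341.3 CPM in labelled knockouts. At that age 5 of 12 had higher fitted values in labelled knockouts and 7 lower. Their part in the receptor differences was not tested.

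Genes around the receptors were compared by genotype too. Of the 5 lists of signalling parts, partners and ligands, 0 genes were called at 10 weeks or at 4 weeks. Over both ages 3 were called, where 0.996% of all tested genes were. They were 1 of 20 tested paired activating receptors, 1 of 12 other inhibitory receptors and 1 of 14 ligand genes. Of the 13 genes of inhibitory signalling and the 9 of activating signalling, 0 were called. Clec5a rose by 0.56 ± 0.11 on the log2 scale and Ceacam1 by 1.03 ± 0.21, and H2-K1, an MHC class I gene, fell by 0.31 ± 0.06.

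Age comparisons set 10-week against 4-week cells within each genotype. In wild type 1 of 10 receptors was called, higher at 10 weeks, where 2.11% of tested genes were, 1.4% higher and 0.706% lower. In the libraries labelled knockout 2 of 10 were called, both higher, where 9.73% were, 4.89% higher and 4.83% lower. Ages did not overlap for 5 receptors in wild type, 3 higher and 2 lower, where 54.6% of tested genes did not, 27.8% higher and 26.8% lower. In labelled knockouts they did not overlap for 7, 5 higher and 2 lower, where 57.3% of tested genes did not, 29.4% higher and 27.9% lower. Wild-type values of Cd300ld were 20.7 and 23.6 CPM at 4 weeks and 74.7 and 60.1 CPM at 10 weeks. Those of labelled knockouts were 16.8 and 17.3 CPM at 4 weeks and 65.1 and 43.4 CPM at 10 weeks, and the ages did not overlap in either genotype. It rose with age by 1.61 ± 0.21 on the log2 scale in wild type and by 1.68 ± 0.22 in those labelled knockout (edgeR adjusted p = 0.00373 and 0.00116), and passed in each of the 11 alternatives of each comparison. The knockout difference in Cd300ld did not depend on age beyond its error, at log2 0.07 with a 95% interval from -0.58 to 0.72.

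The other receptor called with age in labelled knockouts was Lair1, with log2 differences of 0.91 ± 0.14 there and -0.30 ± 0.14 in wild type. These values come from the same libraries as its genotype differences. With the conflicting 10-week libraries exchanged, the Lair1 difference in labelled knockouts was 0.59 and was not called. The 4-week libraries all carry title numbers starting D14-58, and at 10 weeks replicate 1 carries D14-10 and replicate 2 D14-58. Erythroid markers moved with age too. The 7 in the table summed to between 1332 and 3151 CPM at 4 weeks and between 70.8 and 161 CPM at 10 weeks in wild type, and to 347.8 to 644.3 CPM and 48.2 to 53.1 CPM in labelled knockouts. Their part in the receptor differences was not tested.

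Among partners, Cd300lb, an activating receptor of the same cluster, rose with age in wild type by 1.17 ± 0.21 on the log2 scale. The ligand gene Cd200 fell with age by 1.20 ± 0.23 in wild type and by 1.71 ± 0.23 in the libraries labelled knockout. In the latter Sirpb1b and Sirpb1a rose by 0.73 ± 0.11 and 0.59 ± 0.14, and Trem2 fell by 0.78 ± 0.22. Also in the latter Clec12a rose by 1.07 ± 0.20 and Siglec5, the gene of Siglec-F, by 0.76 ± 0.18, while Ceacam1 fell by 1.55 ± 0.30. The kinase gene Src and the collagen gene Col4a1 rose there by 2.18 ± 0.56 and 2.66 ± 0.59.

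Over the 12 libraries the members formed no single pattern. On log2(CPM + 1), Cd300a and Lilrb4 had a Pearson r of 0.96, Lilrb3 and Lilrb4 of 0.94 and Cd300a and Lilrb3 of 0.89. Over the 8 fresh libraries alone these were 0.69, 0.81 and 0.71. Cd300a and Pilra ran in opposite directions (r = -0.88, and -0.70 over the fresh libraries). Cd300a and Cd300lf, which lie in one cluster, had r = -0.79 over all libraries and 0.60 over the fresh ones, so this sign rested on the culture libraries. The points share the culture difference and library depth, and these values are descriptions.

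Among 9241 other genes with a mean of at least 5 CPM, the genes most like each member were taken by Pearson r over the 12 libraries. For Cd300lf they were Il15ra (r = 0.98) and Nid2 (0.96), for Cd300a Sgsm2 and Anxa7 (both 0.99), and for Cd300ld Ptpn3 and Ces2c (both 0.97). Lilrb4 was most like Gp49a (r = 0.98), its near-identical copy, and Ginm1 (0.98), and Lilrb3 most like Atg4a and Edem1 (both 0.97). Pilra was most like Amer1 and Fes (both 0.98) and Cd200r2 most like Ncf4 (0.90) and Nfkbiz (0.89). The closest genes to Lair1 were Sertad2 (0.92) and Slc17a5 (0.87), to Cd200r1 Sp3 (0.88) and Nlrp1b (0.87), and to Sirpa Mbnl1 (0.93) and Zbtb4 (0.88).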

How the data were processed

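RNA-seq was measured in 12 libraries. The authors deposited raw counts per gene and a log2 table of 10631 genes. The authors used TopHat2, edgeR and mouse build mm9, per the submitters' processing notes. Their versions, counting tool, annotation and strand setting are unknown here. The deposited log2 values are log2(CPM + 1) by their column sums and served only to compare 10-week groups. Per the labels' protocols, RNA was prepared with a Qiagen RNeasy Micro kit and KAPA mRNA HyperPrep libraries.

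Groups were compared by quasi-likelihood F tests (edgeR 4.0.16, R 4.3.3) with TMM scaling and filterByExpr (minimum count 10, minimum total count 15), leaving 12748. A single fit held all 12 libraries, a mean per group and 6 residual degrees of freedom. Benjamini-Hochberg adjustment ran over all genes tested, with calls at 0.05. CPM values use TMM effective library sizes. Errors of log2 fold changes are SE. With 2 libraries a group, precision is limited by their number. The code was tested on simulated data.

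Members and gene lists were chosen with earlier results of these data known. The naming rule took all 10 members, Vdr, up to 4 called genes with the smallest p per pathway list and comparison, and the 2 genes most like each member. Ager, Marco, C1qa, Csf1r, Cd2, Cd3e, Ptpn6 and Ptpn11 were named outside it, after their values were seen. Chi-square per degree of freedom between replicates was 9.98 to 52.1, above sampling noise, so none was a repeat deposit. Alternatives tried were DESeq2 1.42.0 (Wald), its size factors within edgeR, filtering not at all or strictly (5 CPM in 2 libraries), only the compared groups, a replicate block, leaving out each library, and exchanging the conflicting libraries. The result of 1 signalling gene is not reported here.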

Additional observations from a re-analysis of the deposited data

Results flagged for a closer look

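The knockout difference in Lair1 at 10 weeks minus that at 4 weeks was log2 1.20. It stood out because the interaction term itself was past the threshold. Earlier results of these libraries had already shown it, so it is no independent evidence.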

How the results depend on the processing

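Each alternative was applied to the count of receptors called per comparison and to the members with an unadjusted p under 0.05. For knockout against wild type at 10 weeks the count, 1 in the main analysis, was 2 with DESeq2, 2 with no filter, 0 with only the compared groups and 0 with the labels exchanged. At 4 weeks, from 0, it was 1 with DESeq2, 1 with its size factors, 3 with no filter, 1 with the replicate block and 5 with only the compared groups. Over both ages, from 2, it was 4 with no filter and 0 with the labels exchanged. In the interaction, from 1, it was 0 with the replicate block and 0 with the labels exchanged. For age it was 2 with DESeq2 in wild type, from 1, and 1 with the labels exchanged in knockout, from 2. For vitamin D3, from 7, it was 2 with only the compared groups. The share of all genes called in the alternatives is not given here, so these counts do not describe the receptors alone. Leaving out 1 library leaves 1 in its group, where calls can be lost for any gene. With 1 library left out, the counts ran from 0 to 1 at 10 weeks, 0 to 0 at 4 weeks, 0 to 2 over both ages, 0 to 0 in the interaction, and 1 to 7 for vitamin D3. They were 1 for age in wild type, 2 for age in knockout, and 8 to 10 for untreated culture.

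Directions reversed only with the labels exchanged. There Cd200r2 was at log2 -0.0133 and Lilrb4 at -0.12 for knockout at 10 weeks, Lilrb4 at -0.0144 over both ages, Cd300lf at -0.24 in the interaction and Cd300lf at 0.0222 for age in wild type. By construction, the exchange puts 1 library of each label on both sides at 10 weeks. The cause of the other shifts was not tested.

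Replicate numbers were not shown to pair libraries. Deviations of same-numbered libraries had r = 0.17 at 10 weeks and -0.18 at 4 weeks, and 0.36 by title number in culture, where source names share only 1 number. With the replicate block the count was 8 for vitamin D3, 8 for untreated culture, 1 at 10 weeks and 2 over both ages. Crossed numbers were not tried. The size factors moved the median of all genes by less than 0.1 in every comparison. Depth was lowest for Cd200r2 among the 10 members, at 32 to 155 counts a library.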

Other observations

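The knockout comparison in fresh cells and the vitamin D3 comparison in culture share no library. Over both ages 8 of the 10 receptors had opposite signs in them, and so did 47.7% of all 12748 tested genes. The exceptions were Sirpa and Pilra, lower in both. Cd200r2 was at log2 1.21 in cells labelled knockout and -1.47 with vitamin D3, and Cd300lf at 0.51 and -0.12. Most of these values did not pass the test in at least 1 comparison, and the members were chosen with results known, so the signs are given as values only.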
